A study of Mus musculus with 6 samples.

Results

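Keratin-associated proteins (KAPs) are the matrix proteins of hair, and their genes, named Krtap in mouse, were followed here in tail skin. Members were taken by name: every gene in the deposited count table whose symbol is Krtap followed by a number, or whose description names a keratin-associated protein, provided that at least 1 of the 6 libraries held a count. The rule gave 56 of the 18180 genes in the table, and all 56 were among the 15061 genes that passed the filter on low counts and were tested. RNA had been sequenced from 3 control libraries and from 3 libraries labelled cKO, a conditional knockout of Mettl3, the catalytic subunit of the RNA m6A methyltransferase. Below, the latter are the cKO-labelled libraries. Controls were Mettl3fl/fl;K14creERT2-/- mice with normal tails, and the other libraries came from spontaneously inflamed tail areas of Mettl3fl/fl;K14creERT2+/- mice. Both carried the floxed Mettl3 allele. Per the series' design text, mice received tamoxifen on 5 days and tissue was taken 4 weeks later. The K14 promoter drives the tamoxifen-inducible Cre in basal keratinocytes, from which the epidermis and the follicle epithelium derive. Genotype and inflammation go together in these groups and cannot be told apart.

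KAPs surround the keratin filaments of the hair fibre and cross-link them, largely through disulphide bonds. The family is sorted by composition into proteins rich in cysteine and proteins rich in glycine and tyrosine, and most genes have a single exon and lie in a few dense clusters. Transcription starts late in the differentiation of the hair shaft, after the hair keratins, in the cortex and the cuticle of the growing follicle. Tail epidermis additionally makes scales, which use the hair-type keratins Krt36 and Krt84.

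Most of these genes hold the letters TATAAA, the core of a TATA box, close to the start site, and 6 promoters are shown because they belong to the genes that fell furthest (Krtap20-2, Krtap13 and Krtap6-3) and to those that fell least among genes with a promoter in the table used (Krtap24-1, Krtap16-1 and Krtap10-4). Each line gives the 100 bases before the annotated start, from RefSeq on GRCm38.p6, with TATAAA in capitals.
Krtap20-2: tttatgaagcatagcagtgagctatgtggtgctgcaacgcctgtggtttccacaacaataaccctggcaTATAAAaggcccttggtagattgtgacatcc
Krtap13: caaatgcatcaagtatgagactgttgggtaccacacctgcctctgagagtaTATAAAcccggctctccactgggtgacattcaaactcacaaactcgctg
Krtap6-3: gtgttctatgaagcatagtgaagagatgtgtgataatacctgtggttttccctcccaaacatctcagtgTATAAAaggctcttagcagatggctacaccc
Krtap24-1: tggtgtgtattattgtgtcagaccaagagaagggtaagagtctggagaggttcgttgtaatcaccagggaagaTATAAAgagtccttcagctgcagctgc
Krtap16-1: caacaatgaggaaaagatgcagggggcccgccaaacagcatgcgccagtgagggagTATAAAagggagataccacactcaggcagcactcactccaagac
Krtap10-4: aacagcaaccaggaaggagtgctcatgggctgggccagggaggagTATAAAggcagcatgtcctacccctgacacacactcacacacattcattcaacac

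These lie at chr16:89205761-89205860 on the plus strand (Krtap20-2), chr16:88751629-88751728 on the minus strand (Krtap13), chr16:89083924-89084023 on the plus strand (Krtap6-3), chr16:88612280-88612379 on the minus strand (Krtap24-1), chr11:99986594-99986693 on the minus strand (Krtap16-1) and chr10:77827071-77827170 on the minus strand (Krtap10-4). TATAAA begins 31, 49, 31, 27, 44 and 55 bases before the start in this order. The genes that fell furthest and those that fell least both have it. Of the 56 genes, 51 had a promoter in the RefSeq table, and 37 of these (72.55%) hold TATAAA on the sense strand within the 60 bases before the start, against 3.149% of all 27025 promoters in the table. In these 37 the median position was 31 bases before the start, and 30 of them had it between 25 and 40 bases. Over the wider window of 250 bases before to 50 after the start, on either strand, TATAAA was in 42 of 51 promoters (82.35%, against 14.16% of all). CTTTGAA, the LEF/TCF motif, was in 9 of 51 (17.65% against 5.269%). The HOX-type motifs TTTACGA and TTTATTGG were in 1 (1.961% against 0.6253%) and in 0 of 51 (against 1.199%). Motifs were searched as exact letters on both strands unless stated, matches of different motifs may overlap, and a match is a description of the sequence only.

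Library totals ran from 35855880 to 37043849 counts, and 3 counts are worth 0.0817 to 0.0837 CPM (counts per 1e+06 of the scaled library), a limit for counting error only. The targeted gene went against its label: Mettl3 had 440, 389 and 337 counts in control, against 569, 512 and 540 in the cKO-labelled libraries (log2 fold change 0.48, SE 0.109, edgeR adjusted p = 0.000102). Counts over a whole gene do not show whether floxed exons were removed. Whether a group's libraries are separate animals is not stated in the labels, and p-values then cover only the spread among these libraries, which may be technical. Replicates did not agree within sampling noise in any pair (mean chi-square per gene 3.91 to 4.08), and each was counted as its own sample. That value does not show whether the libraries come from separate animals.

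All 56 keratin-associated protein genes were lower in the cKO-labelled libraries. By the quasi-likelihood test of edgeR, adjusted over all genes by the Benjamini-Hochberg method, 56 of 56 were called lower, against 30.6% of all genes tested, and 0 were called higher, against 30.8% of all genes. The largest adjusted p among them was 1.22e-05. In each of the 56 genes every cKO-labelled library was below every control library, which held for 32.3% of all genes. The median log2 fold change of the 56 was -1.85, against 0.00207 for all genes tested, and single genes ran from -4.67 to -0.22, that is from 25.5-fold to 1.17-fold lower. At least 2-fold falls were found in 47 of 56 (background 4.79%), at least 4-fold falls in 22 (background 1.06%) and at least 8-fold falls in 5 (background 0.405%). With an assumed biological coefficient of variation of 20%, a test that does not use the small spread between these libraries, 55 were still called lower (background 10.2%), without Krtap24-1, and with 40%, 39 were (background 2.1%). In bulk tissue, fewer hair-forming cells and less KAP RNA per cell cannot be told apart.

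Summed over the 56 genes, the level was 27401, 27394 and 27616 CPM in control against 6417, 6446 and 6414 CPM in the cKO-labelled libraries, a 4.28-fold difference. Libraries within a group lay close together and the groups were far apart. Of all counts, 2.72% ± 0.0143 fell on these genes in control and 0.648% ± 0.0022 in the cKO-labelled libraries (SD, n = 3). With 3 libraries against 3 an exact two-sided permutation test cannot give a p under 0.1, so sums and ratios are given below as values. The plot of CPM by gene and library shows the separation gene by gene.

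**Figure D1:**
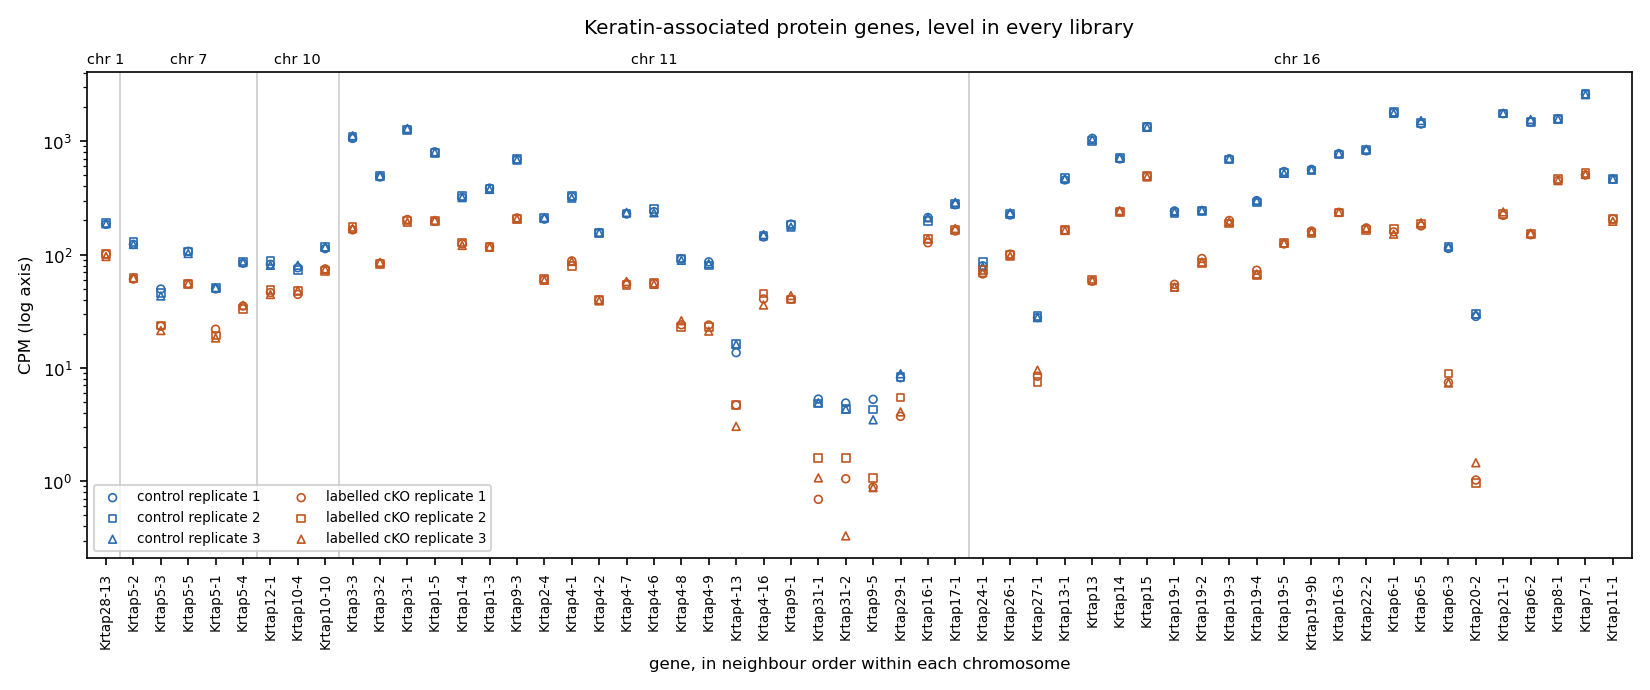
Level of each keratin-associated protein gene in each of the 6 libraries, as CPM on a log axis, with genes in neighbour order within chromosomes 1, 7, 10, 11 and 16. Blue symbols are the 3 control libraries and orange symbols the 3 cKO-labelled libraries. In all 56 genes the orange symbols lie below the blue ones, by the widest margin at Krtap20-2 (25.5-fold) and the narrowest at Krtap24-1 (1.17-fold).

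Ranked by the mean over all 6 libraries, 9 of the 10 most abundant members per length lie in the chromosome 16 cluster and 1, Krtap3-1, on chromosome 11. In control alone the 10th was also a chromosome 11 gene, Krtap3-3 (1476 ± 40.4 FPKM), and Krtap16-3 was 11th. Levels in this paragraph are the deposited FPKM, a count scaled to gene length and to library size, which allow comparison between genes. Krtap7-1 led in both groups, with 4163, 4161 and 4121 FPKM in control and 818.6, 847.7 and 828 FPKM in the cKO-labelled libraries. By the edgeR fit to counts it was 5.07-fold lower (log2 fold change -2.34, SE 0.0136, adjusted p = 1.09e-90). Its protein, with 29.9% glycine plus tyrosine and 9.2% cysteine, met none of the class thresholds used below. Krtap8-1, a small glycine-tyrosine protein of the cortex, was 3rd in control at 2690 ± 11.2 FPKM and 2nd in the cKO-labelled libraries at 790.6 ± 11 FPKM. Krtap6-1, also a glycine-tyrosine protein, was 2nd in control at 2983 ± 28.1 FPKM and only 13th by level, at 270.3 ± 13.7 FPKM, in the cKO-labelled libraries. Next to each other in the control order, Krtap8-1 fell 3.46-fold and Krtap6-1 11.2-fold.

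Among the 10 most abundant genes, Krtap6-5 had 2375 ± 88.8 FPKM in control and 306 ± 9.98 FPKM in the cKO-labelled libraries, and Krtap21-1 had 2332 ± 12.7 and 308.6 ± 11.3 FPKM. These control levels do not differ beyond their spread. Krtap22-2 had 2191 ± 37.5 and 447.9 ± 10.8 FPKM, and Krtap3-1, the cysteine-rich chromosome 11 gene among the 10, had 2094 ± 31.9 and 332.1 ± 8.84 FPKM. Krtap6-2 went from 8th to 20th in level, with 1898 ± 54.2 FPKM in control and 194.2 ± 3.13 FPKM in the cKO-labelled libraries. Moving the other way in rank, Krtap15 was 9th in control at 1587 ± 8.17 FPKM and 3rd in the cKO-labelled libraries at 591 ± 5.74 FPKM, although it too fell 2.73-fold. Krtap16-3 had 1348 ± 14.3 and 416.6 ± 0.489 FPKM. At the other end, Krtap9-5, Krtap31-2 and Krtap31-1 had 3.83 ± 0.789, 4.80 ± 0.341 and 5.14 ± 0.246 FPKM in control and 0.846 ± 0.0993, 1.07 ± 0.686 and 1.16 ± 0.473 FPKM in the cKO-labelled libraries. Control levels thus spanned 3 orders of magnitude, and the order of the 56 genes was largely shared between groups (Spearman rho 0.93 between control and cKO means, across genes that share the same libraries). Genes more abundant in control tended to have the larger falls (rho -0.40 between log2 control FPKM and log2 fold change, n = 56 genes, given as a description). The control level enters both values, which alone can lean such a correlation to the negative side.

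**Figure D2:**
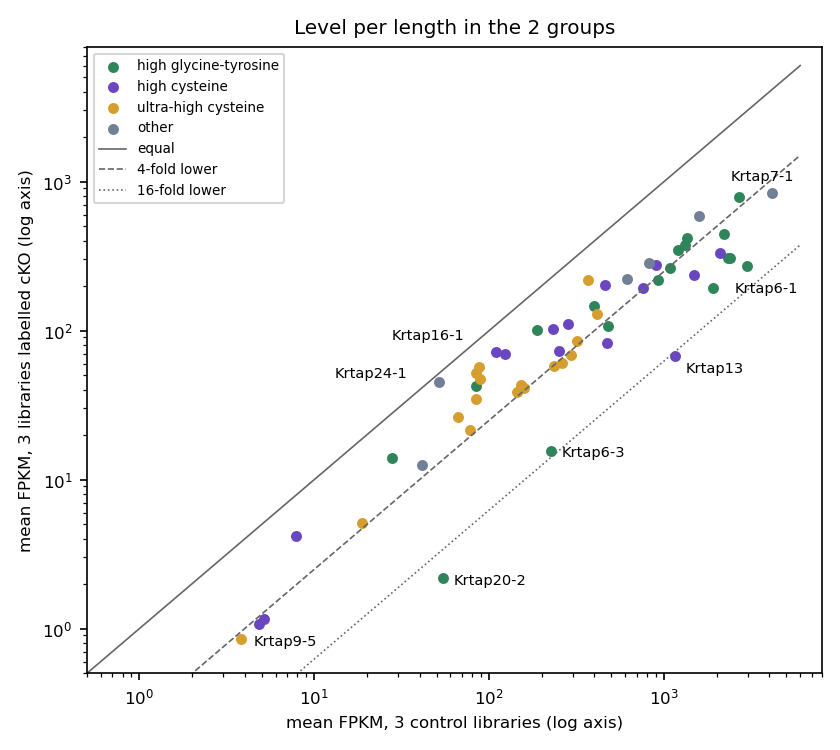
Mean FPKM of each keratin-associated protein gene in the 3 control libraries (x axis) and in the 3 cKO-labelled libraries (y axis), both on log axes, coloured by composition class, with lines at equal level and at 4-fold and 16-fold lower. All points lie under the line of equal level. Krtap24-1 is the nearest to it, and Krtap13 and Krtap20-2 lie beyond 16-fold.

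The largest fall was that of Krtap20-2 (NCBI gene 622935), which encodes a very small glycine-tyrosine protein. Its counts were 1045, 1067 and 1098 in control against 37, 35 and 53 in the cKO-labelled libraries (log2 fold change -4.67, SE 0.134, adjusted p = 3.89e-44, 25.5-fold lower). Krtap13 (NCBI gene 16699) had 38944, 35841 and 38157 counts in control, against 2106, 2188 and 2150 in the cKO-labelled libraries (1033 ± 30.7 and 59.2 ± 0.97 CPM, log2 fold change -4.13, SE 0.0225, adjusted p = 2.53e-92, 17.5-fold lower). By level it was 14th of 56 by FPKM in control against 34th in the cKO-labelled libraries. Krtap6-3 (NCBI gene 100040249) had 4160, 4218 and 4286 counts in control, against 269, 324 and 268 in the cKO-labelled libraries (log2 fold change -3.87, SE 0.0608, adjusted p = 2.09e-61, 14.6-fold lower). In all of these genes the groups were separated by many times the spread within either.

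The other members of subfamily 6 fell less far, from 7.89-fold to 11.2-fold. Krtap6-1 had 65867, 64444 and 64864 counts in control, against 5730, 6088 and 5520 in the cKO-labelled libraries (log2 fold change -3.49), Krtap6-2 had a log2 fold change of -3.31 and Krtap6-5 of -2.98. The summed CPM of the 4 subfamily 6 genes was 9.66-fold lower. Krtap21-1 followed with 64349, 62900 and 64959 counts in control, against 8011, 8247 and 8671 in the cKO-labelled libraries (log2 fold change -2.94, 7.68-fold lower). The cysteine-rich cortex genes of subfamily 3 were next. Krtap3-1 had 1275 ± 18.9 CPM in control and 199 ± 5.37 CPM in the cKO-labelled libraries (log2 fold change -2.68, 6.41-fold lower), and Krtap3-3 and Krtap3-2 had log2 fold changes of -2.68 and -2.54.

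Members with the smallest falls were Krtap24-1, Krtap16-1, Krtap10-10, Krtap10-4, Krtap17-1, Krtap12-1, Krtap28-13, Krtap5-5 and Krtap29-1, the 9 genes whose falls were under 2-fold. Krtap24-1 (NCBI gene 239932) had 2925, 3090 and 2879 counts in control, against 2438, 2640 and 2525 in the cKO-labelled libraries (log2 fold change -0.22, SE 0.0442, adjusted p = 1.22e-05). Its lowest control library, at 78.4 CPM, lay just above its highest cKO-labelled library, at 72.7 CPM. Krtap16-1 had 207.8 ± 7.34 CPM in control and 134.2 ± 6.12 CPM in the cKO-labelled libraries (log2 fold change -0.63). Krtap17-1 had 281.8 ± 6.86 and 165.6 ± 4.28 CPM (log2 fold change -0.77). At the 2-fold line itself, Krtap5-2 and Krtap5-3 lay just inside with log2 fold changes of -1.02 each, and Krtap29-1 and Krtap5-5 just outside with -0.93 each.

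Subfamilies 5, 10 and 12, whose human counterparts are known from the hair cuticle, held 4 of these 9 genes. Their 8 members had a median log2 fold change of -0.97, from -1.34 (Krtap5-1) to -0.65 (Krtap10-10), and a summed CPM 1.90-fold lower. The ratio of their sum to that of the other 48 genes was 0.0253 to 0.0261 in control and 0.0595 to 0.0598 in the cKO-labelled libraries. This contrast and the next were chosen after the values were seen. Krt32 and Krt82, which are among the cuticle keratins, had log2 fold changes of -0.22 and -0.29. Other hair keratins, of the cuticle or elsewhere, also had small changes, Krt35 with -0.03, Krt85 with -0.38 and Krt40 with -0.52. Krt39, likewise known from the cuticle, had -2.43. The sum of Krt32 and Krt82 relative to the 12 other hair keratins outside the tail scale was 0.0355 to 0.0377 in control and 0.0648 to 0.0661 in the cKO-labelled libraries. Since the 12 include Krt39, this ratio does not set the whole cuticle against the other layers. Both ratios were higher in all 3 cKO-labelled libraries.

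By composition, 18 genes encode proteins with at least 35% glycine plus tyrosine (high glycine-tyrosine), 17 of the rest at least 30% cysteine (ultra-high cysteine), 15 at least 10% cysteine (high cysteine), and 6 neither. All members of each class were called lower. Glycine-tyrosine proteins, with a median length of 85 residues, were summed to 12723, 12698 and 12891 CPM in control against 2468, 2464 and 2466 CPM in the cKO-labelled libraries, 5.18-fold lower, with a median log2 fold change of -2.08. In control most of this class sum came from 7 chromosome 16 genes, Krtap22-2 to Krtap6-2, described below. They summed to 7420 to 7615 CPM in control and 890 to 915 CPM in the cKO-labelled libraries, 8.30-fold lower. Among the rest of the class, the subfamily 19 genes and Krtap16-3 were 3.61-fold lower in sum. Krtap8-1, Krtap5-3, Krtap5-2 and Krtap28-13 were 3.46-, 2.03-, 2.02- and 1.88-fold lower. The 5.18-fold fall of the class thus leaned on the 7 genes, and the class ratios below were not recomputed without them. High-cysteine genes were 4.34-fold lower in sum (median -1.80) and ultra-high-cysteine genes 2.91-fold lower (median -1.88). The 6 remaining genes, Krtap7-1, Krtap13-1, Krtap14, Krtap15, Krtap24-1 and Krtap27-1, were 3.51-fold lower in sum (median -1.53). Krtap7-1, the most abundant member, had 29.9% glycine plus tyrosine, under both the 35% threshold and the 30% alternative. It is therefore outside the class ratios below.

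Cysteine-rich transcripts stood at 0.744, 0.744 and 0.739 of the glycine-tyrosine transcripts in control and at 1.002, 1.008 and 0.99998 in the cKO-labelled libraries. The log2 difference between groups was 0.43 under this class rule, 0.33 with summed FPKM and 0.32 with a glycine plus tyrosine threshold of 30%. The direction depends on where genes that meet both the glycine plus tyrosine and a cysteine threshold are put. Of the 18 glycine-tyrosine genes, 9 also hold at least 10% cysteine, namely Krtap5-2, Krtap5-3, Krtap28-13, Krtap6-1, Krtap6-2, Krtap6-3, Krtap6-5, Krtap20-2 and Krtap21-1. With all 9 counted as cysteine-rich, an alternative chosen after the values were seen, the ratio was 2.85 to 2.89 in control and 2.16 to 2.23 in the cKO-labelled libraries, a log2 difference of -0.39. With only the 3 genes of at least 30% cysteine moved (Krtap5-2, Krtap5-3 and Krtap28-13), it was 0.56. Across the 56 genes the fall had weak rank correlations with glycine plus tyrosine content (rho -0.21) and with cysteine content (rho 0.18), while genes of shorter proteins tended to have larger falls (rho 0.53 between length and log2 fold change). These are descriptions over genes that share libraries, and many of these genes share a cluster.

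**Figure D3:**
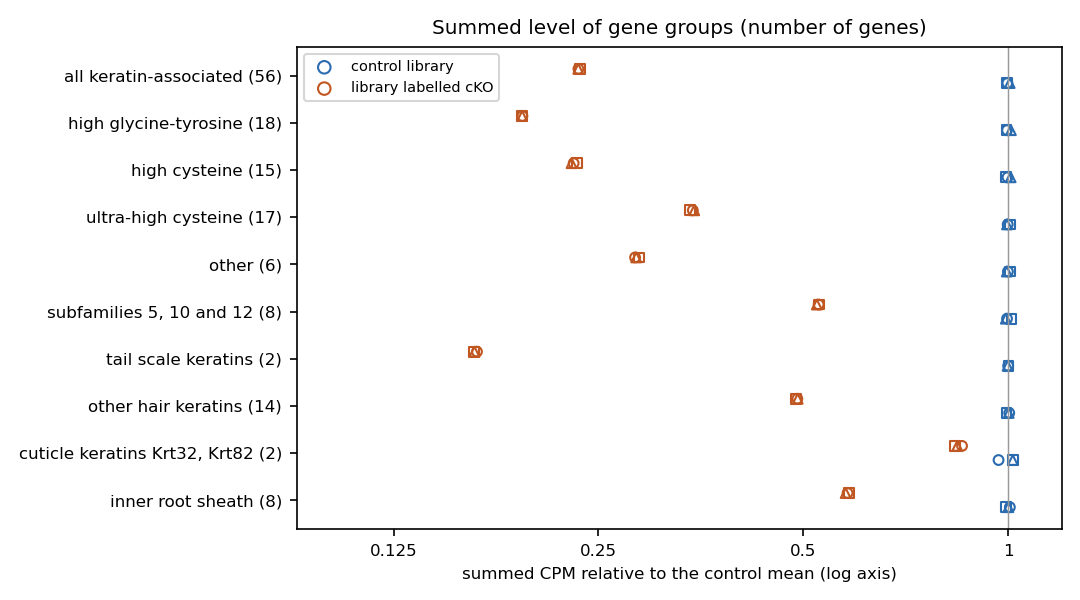
Summed CPM of gene groups in each library, relative to the mean of the 3 control libraries, on a log axis, with the number of genes in brackets. Blue symbols are control libraries and orange symbols cKO-labelled libraries. The 56 keratin-associated protein genes sit at 0.233 to 0.235 of control, the glycine-tyrosine class lower at 0.193, subfamilies 5, 10 and 12 at 0.523 to 0.527, and the cuticle keratins Krt32 and Krt82 at 0.836 to 0.856.

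The falls also differed along the genome. The order of neighbours was taken from RefSeq on GRCm38.p6. Chromosome 16 holds 24 of the genes (median log2 fold change -1.96), chromosome 11 holds 23 (median -1.93), chromosome 7 the 5 genes of subfamily 5 (median -1.02), chromosome 10 subfamilies 10 and 12 (3 genes, median -0.71) and chromosome 1 Krtap28-13 alone (-0.91). Of the genes with at least 4-fold falls, 12 lie on chromosome 16 and 10 on chromosome 11.

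Within chromosome 16 several large falls lay in one run of neighbours, which was picked out after its values were seen. From Krtap22-2 to Krtap6-2, 7 consecutive KAP genes (Krtap22-2, Krtap6-1, Krtap6-5, Krtap6-3, Krtap20-2, Krtap21-1 and Krtap6-2) had a median log2 fold change of -3.31 and a summed CPM 8.30-fold lower. All 7 belong to the high glycine-tyrosine class, so the fall of that class leans on the genes of this run. The 17 other genes of the cluster had a median of -1.73 and a sum 3.68-fold lower. The ranges overlapped: Krtap13, outside the run, fell further (-4.13) than all of its genes but Krtap20-2, and Krtap22-2, inside it, had -2.31. The ratio of the sums was 0.623 to 0.642 in control and 0.275 to 0.285 in the cKO-labelled libraries. On either side, the 6 subfamily 19 genes and Krtap16-3 had log2 fold changes from -2.18 to -1.48, and Krtap8-1, Krtap7-1 and Krtap11-1 had -1.79, -2.34 and -1.20. The plot of every tested gene along the cluster also shows the other counted genes that lie between the members.

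**Figure D4:**
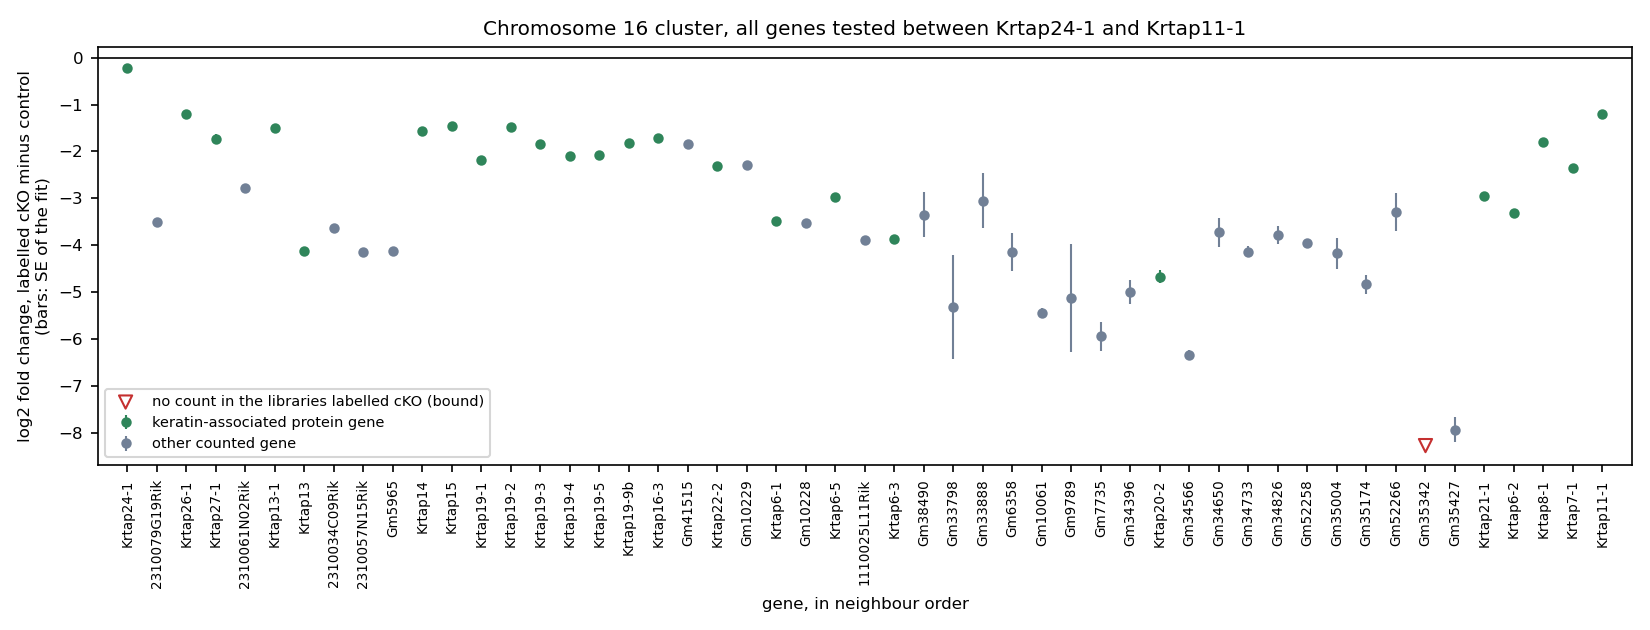
Log2 fold change (cKO-labelled libraries minus control, bars are the standard error of the fit) of all genes tested from Krtap24-1 to Krtap11-1 on chromosome 16, in neighbour order. Green points are the 24 keratin-associated protein genes and grey points other counted genes, of which 27 were tested. The open triangle is Gm35342, which had no count in these libraries and stands at its bound of 309-fold lower. The lowest points lie between Krtap6-3 and Krtap21-1.

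Chromosome 11 was more even. Subfamilies 1, 2, 3, 4, 9 and 31 there had log2 fold changes from -2.68 to -1.38, and the 8 genes of subfamily 4, ultra-high-cysteine proteins, fell within a narrow band from -2.12 to -1.85. The last 3 genes in order, Krtap29-1, Krtap16-1 and Krtap17-1, had a median of -0.77, against -1.99 for the other 20, a contrast also chosen after the values were seen. Their summed CPM relative to the other 20 was 0.0724 to 0.0753 in control and 0.190 to 0.205 in the cKO-labelled libraries. In the plot of fold changes along the clusters, these 3 genes stand above the rest of the chromosome.

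**Figure D5:**
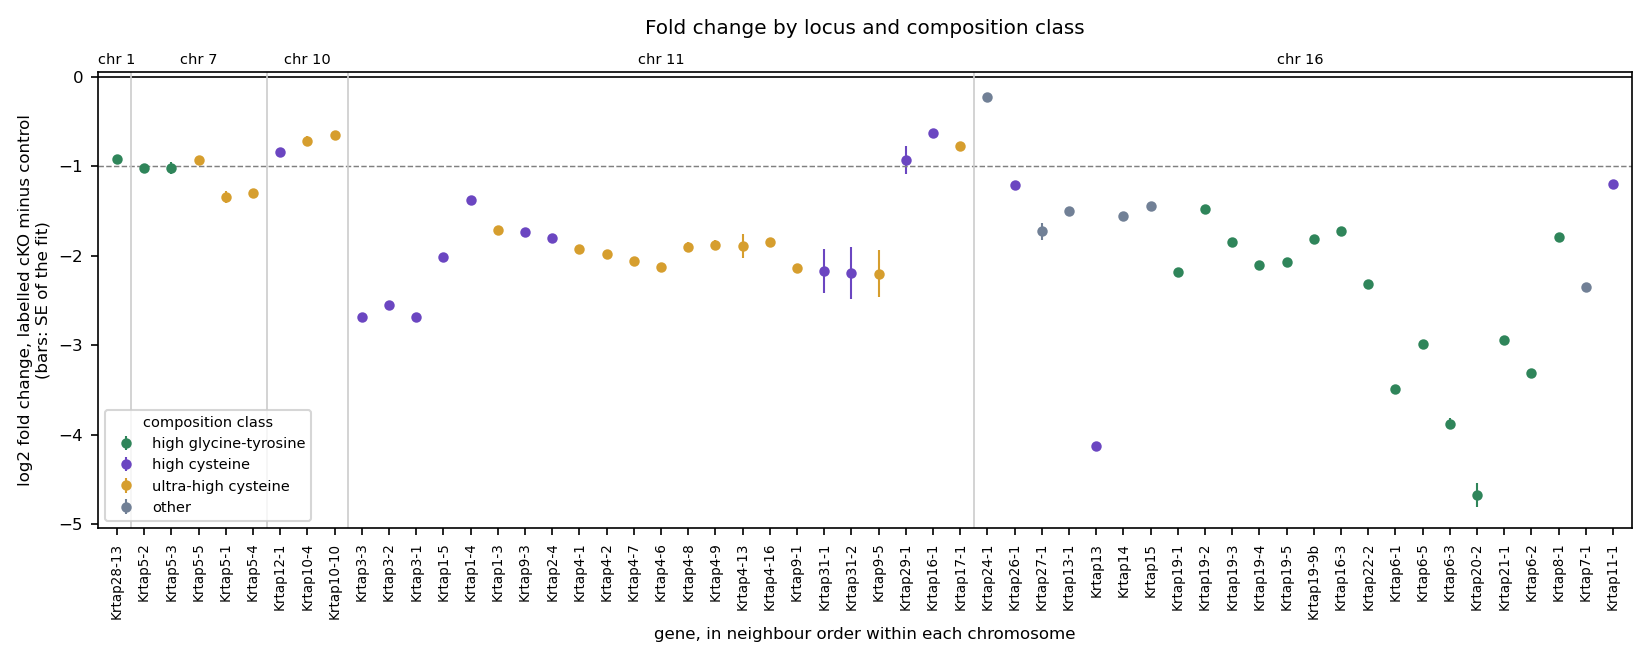
Log2 fold change of each keratin-associated protein gene (cKO-labelled libraries minus control, bars are the standard error of the fit), in neighbour order within each chromosome and coloured by composition class, with a dashed line at 2-fold lower. All 56 points lie under 0. Krtap20-2, Krtap13 and Krtap6-3 reach the lowest values, and the genes of chromosomes 7 and 10 and the last 3 of chromosome 11 stay near the dashed line.

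Genes that share a subfamily number did not always share a fall. Krtap13 and Krtap13-1, direct neighbours in the cluster, had log2 fold changes of -4.13 and -1.50. Krtap13 stood at 2.11 to 2.33 times the CPM of Krtap13-1 in control and at 0.353 to 0.368 times in the cKO-labelled libraries, so their order turned over. Krtap16-1 on chromosome 11 (-0.63) and Krtap16-3 on chromosome 16 (-1.72) encode proteins of different classes, high cysteine and high glycine-tyrosine. In subfamily 9, Krtap9-3 had -1.74 and Krtap9-1 -2.13, and Krtap9-5 had counts of 194, 154 and 128 in control against 32, 39 and 32 in the cKO-labelled libraries (-2.20).

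Some single-gene values are uncertain because members resemble each other or a neighbour. Exact windows of 100 coding bases were compared with the GENCODE transcripts of other genes on GRCm38. Of the 56 genes, 34 shared none and 22 shared some. Over 50% was shared by 7: Krtap3-2, Krtap3-3, Krtap10-10, Krtap2-4, Krtap31-1, Krtap31-2 and Krtap6-1. Gene models outside that transcript set, inexact matches and the untranslated parts of the members were not searched, so sharing none does not show unique counting. Krtap13 shared 27.1% of its windows with 3 genes of its own cluster that also fell, 2310057N15Rik, Gm5965 and 2310034C09Rik. How reads that match several genes were counted is not given in the sources used here. Between libraries of a group the median coefficient of variation of the 56 genes was 2.04% in control and 3.0% in the cKO-labelled libraries. The widest spread was that of Krtap31-2, with 38, 58 and 12 counts in the cKO-labelled libraries (64.0%).

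The hair keratins, which form the filaments that KAPs embed, were lower in the same libraries, by factors that differed widely between genes. Of 16 listed hair keratins, 15 were called lower (background 30.6%, median log2 fold change -1.10) and Krt35 was not (log2 fold change -0.03, adjusted p = 0.328). The sum of KAP genes was 0.749, 0.749 and 0.756 times the sum of these keratins in control and 0.764, 0.773 and 0.767 times in the cKO-labelled libraries, a log2 difference of 0.03. Krt36 and Krt84, which mark the tail scale, held most of the keratin counts and had log2 fold changes of -2.50 and -2.70. Without them the ratio was 3.77 to 3.81 in control and 1.81 to 1.83 in the cKO-labelled libraries, a log2 difference of -1.07. The direction of this comparison therefore depends on whether the scale keratins are counted. Among the other keratins, Krt39 (-2.43) and the cortex keratins Krt34 (-1.58) and Krt86 (-1.37) had the largest falls, Krt31 and Krt33b had -0.96 and -1.10, and Krt85, made early in the shaft, had -0.38.

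Other lists of hair follicle genes had smaller median changes, and their counts stand against 30.6% of all genes called lower and 30.8% called higher. All 8 tested genes of the inner root sheath, the follicle layer around the shaft that makes no KAPs, were called lower (median log2 fold change -0.76, summed CPM 1.72-fold lower). Of 19 regulators of the hair matrix, 15 were called lower, 1 higher (Ovol1, 0.27) and 3 were not called (median -0.52). Hoxc13, a homeobox factor of the hair shaft that activates hair keratin genes, went from 68.8 ± 1.72 to 41.0 ± 1.28 CPM (7.07e-22 as adjusted p, log2 fold change -0.74 with SE 0.0508). Foxn1, the nude-locus factor, had a log2 fold change of -0.93 and Foxq1, the satin-locus factor, of -1.50. Of 16 genes for fibre cross-linking and modification, 7 were called lower and 7 higher, not far from these shares. S100a3, a calcium-binding protein of the cuticle, was among the lower ones (-0.79), and Tgm3, a transglutaminase also used in epidermis, among the higher ones (1.98). Of 11 follicle stem cell genes 8 were called lower and 0 higher.

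Markers of other cells and structures moved in the same libraries, and the shares of all genes (30.6% lower, 30.8% higher) apply to these counts too. All 8 tested neutrophil markers were called higher, from a sum of 105 to 113 CPM in control to 3572 to 3634 CPM in the cKO-labelled libraries, with Trem1 at 0 counts in 1 control library and Retnlg at 0 in another. S100a8 and S100a9, which inflamed keratinocytes also make, held 96.5% to 96.7% of that sum in the cKO-labelled libraries. The 6 other neutrophil markers summed to 11.8 to 15.99 CPM in control and 118.2 to 126.1 CPM in the cKO-labelled libraries. Stfa2 held most of the latter sum, with means of 3.18 CPM in control and 71.5 CPM in the cKO-labelled libraries. Ly6g, also listed, was not tested. All 8 macrophage markers (761 to 780 and 1122 to 1149 CPM) and 5 of 6 T cell markers (3.22 to 4.86 and 12.01 to 13.6 CPM, Cd8a at 0 in 2 control libraries) were called higher, as were 6 of 7 fibroblast markers, with 1 lower (11265 to 11371 and 16327 to 16374 CPM). Of the 9 markers of the epidermis between follicles, 6 were called higher and 3 lower (49939 to 50109 and 68728 to 69593 CPM). Within that sum, mean Krt1 went from 2170 CPM in control to 20492 CPM in the cKO-labelled libraries. Krt2, among the lower ones, went from 17140 to 6433 CPM. Sebaceous gland markers were called lower in 10 of 11 (5509 to 5564 and 2305 to 2325 CPM). Dermal papilla markers were mixed, with 1 lower, 3 higher and 6 not called of 10 (118 to 123.1 and 156 to 163 CPM), near the shares of all genes for the higher calls. Melanocyte markers were called higher in 6 of 7 and lower in 1 (122.7 to 130.3 and 173 to 183 CPM), and endothelial markers higher in 5 of 6 (193 to 199 and 251 to 261 CPM). Adipocyte markers were called lower in 5 of 6 (699.6 to 706.6 and 495 to 506 CPM), and of 7 skeletal muscle markers 1 was called higher (11.0001 to 15.4 and 14.5 to 32.3 CPM). The part of these shifts in the KAP differences was not tested.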

How the data were processed

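Per the labels, RNA from mouse tail skin was taken up in TRIzol, with libraries from the VAHTS Universal V5 kit. Per the submitters' processing notes, reads were handled with fastp, HISAT2 and HTSeq on mm39. For versions, gene annotation, strand setting and multi-mapping reads the entry is: not given in the sources used here. The authors deposited raw counts per gene and FPKM for the same genes, and 0 value columns lacked a sample. Members and gene lists were chosen with earlier results of these data known.

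Counts of all genes were filtered with filterByExpr (minimum count 10, total 15), scaled by TMM and fitted with edgeR 4.0.16 (robust quasi-likelihood, group as the only term) in R 4.3.3, with Benjamini-Hochberg adjustment over 15061 genes and calls at an adjusted p under 0.05. CPM use TMM-scaled sizes and FPKM are as deposited. The edgeR fit was tested on simulated counts. Every member could be named. Planned to be given in full were the 10 with the highest mean FPKM and the 8 with the largest fall. Some of these are given without counts, SE or adjusted p. The plan was to name up to 3 genes from a list, and more were named from some lists. Alternatives were DESeq2 1.42.0, other scaling and filters, limma 3.58.1 on log2(FPKM + 1) and log2(FPKM + 0.1), an assumed biological coefficient of variation (BCV), a replicate block and leaving out each library. Composition classes come from translated GENCODE transcripts of GRCm38, and no coordinates were carried between builds.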

Additional observations from a re-analysis of the deposited data

How the results depend on the processing

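All 56 genes stayed called lower, and 0 higher, with DESeq2, other scaling, other filters, limma on FPKM, an adjusted p of 0.01 and without each library in turn (median log2 fold change -1.85 to -1.73). With an assumed BCV of 20%, 55 were called (background 10.2%), without Krtap24-1 (adjusted p = 0.578). With 40%, 39 were called (background 2.1%), and 17 were lost, among them all 5 of subfamily 5, all 3 of subfamilies 10 and 12, Krtap15 and Krtap11-1. At least 2-fold falls numbered 45 to 48 wherever the spread was estimated. The ratio of KAP genes to hair keratins turned from a log2 difference of 0.03 to -0.11 with summed FPKM and to -1.07 without Krt36 and Krt84. The ratio of cysteine-rich to glycine-tyrosine genes turned from 0.43 to -0.39 with every gene of at least 10% cysteine counted as cysteine-rich, since subfamily 6, Krtap20-2 and Krtap21-1 then change sides. Leaving out the 3 most counted genes (Krtap7-1, Krtap8-1 and Krtap21-1) turned no sum or ratio. On log2(FPKM + 1), Krtap31-1, Krtap31-2 and Krtap9-5 moved by over 1.5-fold, to -1.53, -1.54 and -1.38, since the pseudocount is near their level. Replicate numbers did not pair the libraries (same-number correlations of deviations -0.022, -0.0099 and -0.041), and a fit with the replicate block called 56 lower. With 3 libraries a group, no single library could be tested as an outlier.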

Other observations

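Other counted genes within the KAP clusters were lower as well, a pattern looked at after the values were seen. Between members on chromosomes 7, 10, 11 and 16, by RefSeq order on GRCm38.p6, lie 62 other protein-coding genes of the count table. All of them are named as Gm or Rik models. All 58 that were tested were called lower with edgeR (median log2 fold change -1.996, background 30.6%). Medians by chromosome were -1.01 for the 5 genes on chromosome 7, -0.77 for the 12 on chromosome 10, -1.83 for the 14 on chromosome 11 and -4.13 for the 27 on chromosome 16. On chromosomes 7, 10 and 11 these medians lie near those of the named KAP genes beside them (-1.02, -0.71 and -1.93). On chromosome 16 the other genes had a lower median than the named KAP genes (-1.96). What these models encode was not analysed here, and some share sequence with KAP genes.

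The lowest fold changes of the chromosome 16 cluster lay between Krtap6-3 and Krtap21-1. This stretch holds Krtap20-2, the KAP gene with the largest fall, and 18 other tested genes, all 18 with a log2 fold change under -3 (median -4.50, unchanged with Gm35342 at its bound). Gm34566 had 2787, 2865 and 2784 counts in control, against 20, 36 and 47 in the cKO-labelled libraries (log2 fold change -6.35). Gm35427 had 638, 709 and 703 counts in control, against 7, 1 and 0 in the cKO-labelled libraries. Gm35342 had 308, 291 and 333 counts in control, against 0, 0 and 0 in the cKO-labelled libraries, at least 309-fold lower with a floor of 3 counts over the group's libraries. The 9 other genes elsewhere in the cluster had a median of -3.53. Outside the ends of the chromosome 16 cluster, Cldn8 and Cldn17 on the one side were not called by the edgeR fit (log2 fold changes 0.000669 and -0.14, adjusted p = 0.997 and 0.762). On the other side Tiam1 and Sod1 were called lower, with -0.10 (adjusted p = 0.00541) and -0.44 (adjusted p = 1.08e-13). Genes just outside the outermost named members of the other clusters were mostly called lower too. On chromosome 10 these were Gm10142 (-0.85), Gm10024 (-0.83), Gm36176 (-0.76) and Gm10318 (-0.61), and on chromosome 11 the hair keratins Krt40 (-0.52), Krt39 (-2.43), Krt33a (-1.11) and Krt33b (-1.10). On chromosome 7, Gm4553 (-0.91) and Gm29735 (-1.03) were called lower on one side, while on the other Ctsd was called higher (0.29) and Ifitm10 was not called (0.12).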
